A study of Mus musculus with 12 samples.

Results

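The ERK cascade relays signals from the cell surface through 3 tiers of protein kinases, and 7 of its genes were examined here. They are the RAF kinase genes Araf and Braf, the MAP kinase kinase kinase gene Map3k8 (which encodes TPL2, also called COT), the MEK genes Map2k1 and Map2k2, the ERK1 gene Mapk3 and the scaffold gene Ksr1. The genes were chosen by symbol from the 53801 gene records of the deposited expression table, and each symbol matched 1 record. RNA-seq was done on RAW264.7, a mouse macrophage-like line transformed by Abelson murine leukaemia virus. Synbindin, the TRAPP complex subunit encoded by Trappc4, was silenced with small interfering RNA (siRNA). The 4 groups of 3 libraries each were silenced cells without LPS, control-siRNA cells without LPS, silenced cells after 4 h with 100 ng/ml LPS (the lipopolysaccharide of bacterial walls, sensed by Toll-like receptor 4), and control-siRNA cells after the same LPS. All cells were at passages 3 to 5, and nothing in the labels says whether replicates came from separate transfections. P-values therefore measure the spread between these libraries, which may be technical.

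In this cascade RAF kinases phosphorylate MEK1 and MEK2, which in turn phosphorylate the ERK kinases on a threonine and a tyrosine. In macrophages given LPS, MEK is mainly activated by TPL2, which is held inactive by the NF-kB precursor p105 until IKK phosphorylates p105. Scaffold proteins such as KSR1 bring RAF, MEK and ERK together, and Synbindin has been reported to bind MEK and ERK at the Golgi. Transcript levels say nothing of how much of each kinase is phosphorylated, which was not measured here.

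After LPS the transcripts of both MEK kinases and of TPL2 were higher, in silenced and in control cells alike, and no cascade gene passed the test for an effect of silencing. With limma, adjusted over all 13078 genes tested, Map3k8, Map2k1 and Map2k2 rose with LPS in both kinds of cell, and Braf fell in control cells. That is 3 of 6 testable genes called in silenced cells, where 48.5% of all genes were called, and 4 of 6 in control cells, where 48.2% were. Silencing left all 6 testable genes without a call at either time, where 0.214% of all genes were called without LPS and 0.719% after it. After LPS, Map3k8 was nonetheless 1.47 times as high in silenced as in control cells by group means, while Map2k2 stood at 0.774 times its control level, and for both genes the 3 silenced and 3 control libraries did not overlap (18.9% of all genes had ranges apart in that comparison). In bulk RNA, fewer cells with a transcript and less of it per cell cannot be told apart.

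Trappc4 was the check of the silencing. It averaged 5.89 ± 1.43 FPKM in silenced and 13.2 ± 0.79 FPKM in control cells without LPS, and 7.28 ± 1.26 FPKM in silenced and 13.0 ± 3.22 FPKM in control cells after LPS (SD, n = 3 each). FPKM is a fragment count scaled by transcript length and library size. Over both times Trappc4 fell by 0.90 ± 0.14 on the log2 scale (limma, adjusted p = 0.00937), where ± is the SE, as for all log2 differences below. At neither time alone was it called (-1.07 ± 0.19 without LPS, adjusted p = 0.0558, and -0.74 ± 0.19 after LPS, adjusted p = 0.120), so the absence of a call at 1 time does not show that a transcript was unaffected. That call was lost with estimated depth in the model (adjusted p = 0.0525). Depth could only be roughly estimated from the FPKM values. After LPS the estimates were 13.6 to 17.7 M fragments in silenced and 10.2 to 13.0 M in control libraries, without overlap. Without LPS they were 7.41 to 16.3 M in silenced and 7.90 to 11.7 M in control libraries. Whether true depth differed between the groups is not known. Of 10 macrophage markers 9 were at 1 FPKM or more in all 12 libraries, and markers of B, T and NK cells, neutrophils, fibroblasts and epithelium stayed under 1 FPKM. The summed macrophage markers were 2444 to 3189 FPKM in silenced and 1861 to 2254 FPKM in control libraries after LPS, and 2642 to 3185 FPKM in silenced and 2088 to 2238 FPKM in control libraries without it. The part of depth and of this marker difference in the results was not tested, beyond the values with estimated depth in the model given below.

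Transcript levels of the 7 genes differed over a wide range. Map2k1 was the most abundant in every group and lay above 94.8% of the tested genes by its mean over 12 libraries, 68.4 FPKM. Mapk3 followed with 25.9 FPKM, then Map2k2 with 15.6, Araf with 13.9, Map3k8 with 4.16 and Braf with 3.78 FPKM. In cells without LPS the order was Map2k1, Mapk3, Araf, Map2k2, Braf and Map3k8. After LPS Map2k2 stood above Araf and Map3k8 above Braf, in silenced and in control cells. Neighbours in these orders had separate ranges over 3 libraries in each group, except Araf and Map2k2 in silenced cells without LPS. Ksr1, at the bottom throughout, reached at most 0.0929 FPKM.

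**Figure D1:**
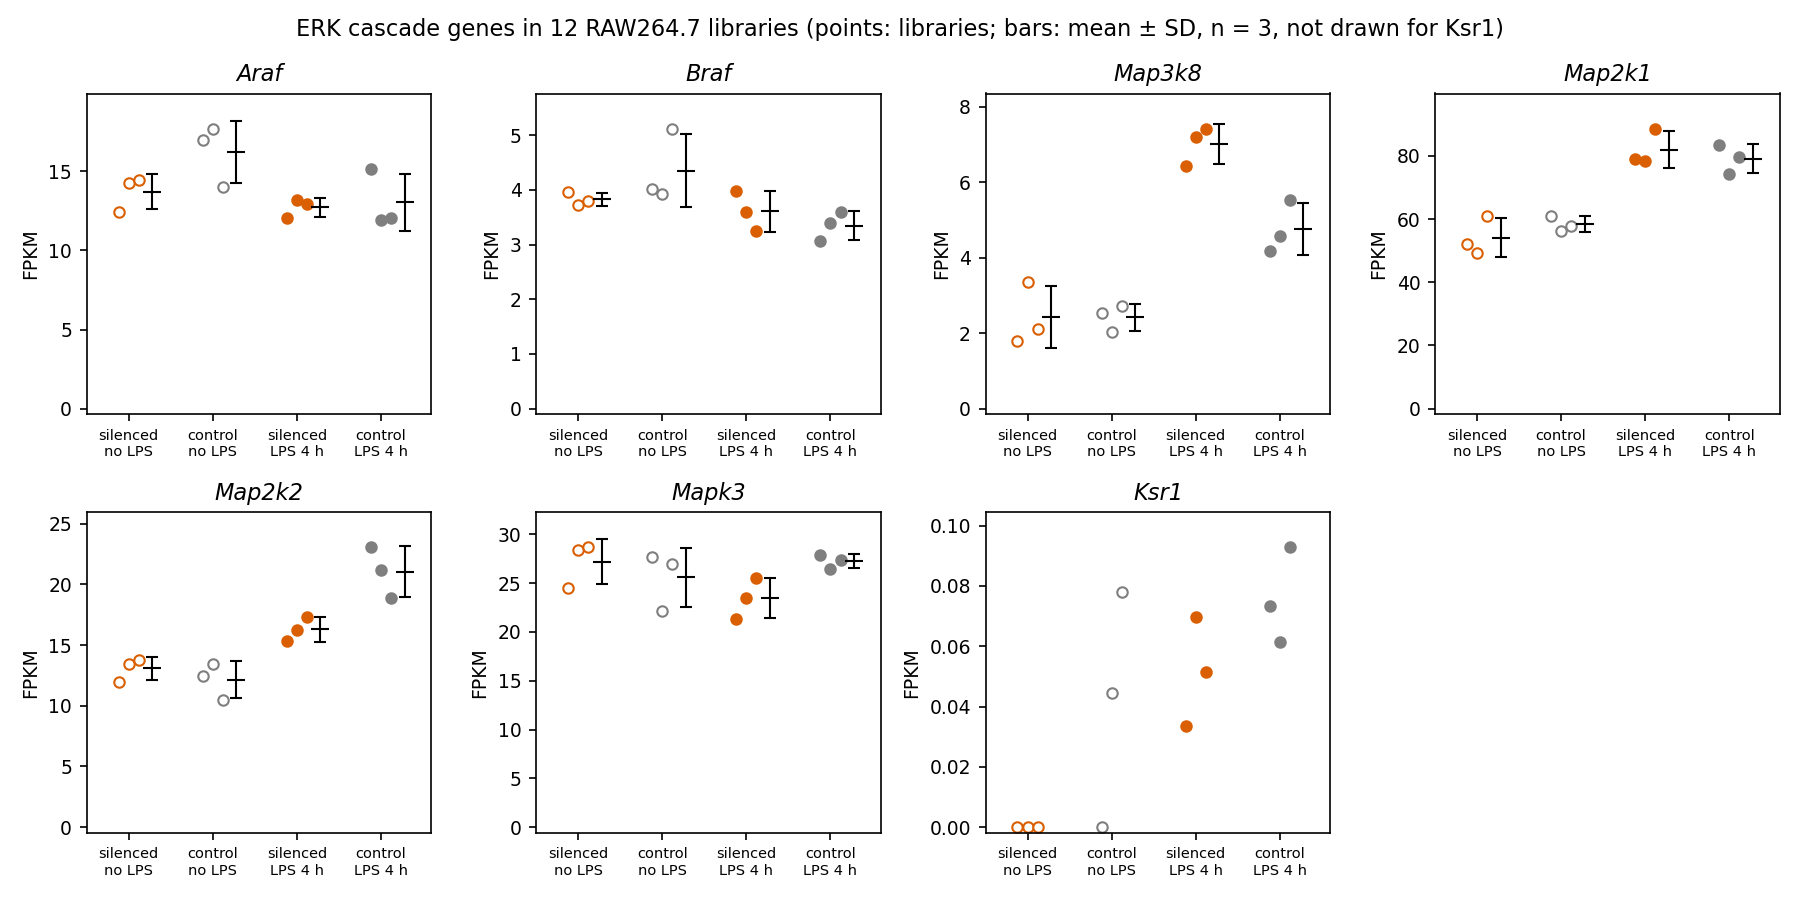
FPKM of each ERK cascade gene (y axis, from 0, a different scale per gene) in the silenced and control groups without LPS (open points) and after 4 h of LPS (filled points). Each point is 1 library and each bar the mean ± SD (n = 3), left out for Ksr1, which was listed at 0 in 4 libraries. After LPS the silenced libraries stand above the control libraries for Map3k8 and below them for Map2k2 and Mapk3.

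Map3k8 (ENSMUSG00000024235, protein-coding, 5 annotated transcripts) encodes the kinase that activates MEK downstream of Toll-like receptors. After LPS it had 6.42, 7.19 and 7.42 FPKM in silenced cells, against 4.19, 4.57 and 5.53 FPKM in control cells. Every silenced library was above every control library at that time. Without LPS it had 1.79, 3.35 and 2.12 FPKM in silenced cells, against 2.55, 2.02 and 2.71 FPKM in control cells, and the groups overlapped. With LPS, Map3k8 rose 2.90-fold by group means in silenced cells (1.25 ± 0.16 on the log2(FPKM + 1) scale, SE, limma adjusted p = 6.93e-05). In control cells it rose 1.96-fold (0.75 ± 0.16, adjusted p = 0.00266). Fold changes on this scale understate the change of genes with low FPKM, as Map3k8 is. The silenced-minus-control difference after LPS was 0.48 ± 0.16 (95% interval 0.12 to 0.84, limma unadjusted p = 0.0129, adjusted p = 0.232), which did not pass. Over the other settings it ranged from 0.41 to 0.58, with adjusted p between 0.143 and 0.486, and it was 0.58 with estimated depth in the model. Without LPS the difference was -0.02 ± 0.16 (adjusted p = 0.972). The LPS change in silenced minus that in control cells, the interaction, was 0.50 ± 0.23 (-0.00 to 1.01, unadjusted p = 0.0507, adjusted p = 0.443).

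The RAF genes were at steadier levels. Araf (ENSMUSG00000001127, GRCm38 chromosome X, 20797814 to 20860519, plus strand) had 12.1, 13.2 and 12.9 FPKM in silenced and 15.1, 11.9 and 12.1 FPKM in control cells after LPS. Without LPS it had 12.4, 14.3 and 14.4 FPKM in silenced cells and 17.0, 17.7 and 14.002 FPKM in control cells. The groups overlapped at both times, and the differences of -0.02 ± 0.11 after LPS and -0.22 ± 0.11 without it were not called (limma adjusted p = 0.962 and 0.473). The LPS change of Araf was -0.10 ± 0.11 in silenced cells (limma adjusted p = 0.516) and -0.30 ± 0.11 in control cells (adjusted p = 0.0505). The change in control cells passed in 4 other settings, among them the fits without control replicate 3 of the untreated cells (-0.39) and without control replicate 1 of the treated ones (-0.40).

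Braf (ENSMUSG00000002413, chromosome 6, 39603237 to 39725463, minus strand) encodes the RAF kinase with the highest basal activity. It had 3.99, 3.59 and 3.24 FPKM in silenced and 3.06, 3.39 and 3.59 FPKM in control cells after LPS. Without LPS it had 3.95, 3.73 and 3.79 FPKM in silenced cells, against 4.02, 3.92 and 5.12 FPKM in control cells, whose replicate 3 was the highest of all 12 libraries. Silenced and control libraries overlapped at both times. Braf fell with LPS in control cells (-0.29 ± 0.11, limma adjusted p = 0.0458) and was at -0.07 ± 0.11 in silenced cells (adjusted p = 0.639). The difference between these changes was not called (0.22 ± 0.16, adjusted p = 0.620). The call in control cells was weak: it was lost in 15 of 22 other settings, among them median-ratio scaling (-0.11) and the fit without control replicate 3 of the untreated cells (-0.19). Exons of Araf overlap those of Syn1, and exons of Braf those of Ndufb2, on the opposite strand. Strand was marked in library preparation, per the labels' protocols, but whether the quantification used it is not stated in them, so reads of these pairs may not be fully separated.

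The MEK genes were the cascade's most abundant tier and rose together with LPS. Upstream windows are shown for these 2 of the 3 cascade genes called higher in both kinds of cell, and that of Map3k8 is not shown. Each is the 250 bases before the RefSeq start in GRCm38.p6, 5′ to 3′ on the gene's strand, with GC boxes (GGGCGG or its reverse complement CCGCCC) and CCAAT boxes (CCAAT or ATTGG) in capitals. Map2k1 lies on the minus strand (chr9:64253606-64253855) and Map2k2 on the plus strand (chr10:81105665-81105914).
Map2k1: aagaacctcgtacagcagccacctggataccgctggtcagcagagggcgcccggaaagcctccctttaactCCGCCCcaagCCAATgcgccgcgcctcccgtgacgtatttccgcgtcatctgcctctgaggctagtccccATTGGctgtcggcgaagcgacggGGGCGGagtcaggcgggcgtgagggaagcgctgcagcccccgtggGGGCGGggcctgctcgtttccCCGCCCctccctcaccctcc
Map2k2: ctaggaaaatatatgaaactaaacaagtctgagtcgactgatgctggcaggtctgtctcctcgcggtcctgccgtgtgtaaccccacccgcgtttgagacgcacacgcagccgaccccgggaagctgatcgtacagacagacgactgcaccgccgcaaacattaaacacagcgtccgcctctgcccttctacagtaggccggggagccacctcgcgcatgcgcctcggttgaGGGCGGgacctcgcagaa
Map2k1 held 4 GC boxes and 2 CCAAT boxes, none overlapping another, and Map2k2 held 1 GC box and 0 CCAAT boxes. Over all 32851 RefSeq promoter windows of this length, 32.7% held a GC box and 33.8% a CCAAT box on either strand. The ETS motif CCGGAAG, the cyclic AMP element TGACGTCA, the AP-1 motif TGANTCA (N is any base) and a degenerate NF-kB motif had 0 matches in either window, and the shares of all windows with a match were 6.91%, 1.55%, 6.75% and 0.356%. GC content was 68.4% for Map2k1 and 59.6% for Map2k2, against a median of 52.4%.

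Map2k1 (ENSMUSG00000004936, chromosome 9, 64185770 to 64253631, 4 annotated transcripts) had 79.1, 78.3 and 88.7 FPKM in silenced cells with LPS and 52.3, 49.1 and 61.0 FPKM in silenced cells without it. In control cells it had 83.5, 74.2 and 79.8 FPKM with LPS and 61.1, 56.1 and 57.7 FPKM without. All 6 libraries with LPS stood above all 6 without, and silenced and control libraries overlapped at both times. Map2k1 rose with LPS by 0.59 ± 0.09 in silenced cells (limma adjusted p = 0.000235) and by 0.43 ± 0.09 in control cells (adjusted p = 0.00215). The rise in control cells was not called with quantile normalization (0.21, adjusted p = 0.0895). The silenced-minus-control differences were 0.05 ± 0.09 after LPS (95% interval -0.15 to 0.25) and -0.11 ± 0.09 without it (-0.31 to 0.09).

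Map2k2 (ENSMUSG00000035027, chromosome 10, 81105915 to 81133975, 9 annotated transcripts) had 15.3, 16.2 and 17.3 FPKM in silenced cells after LPS, against 23.1, 21.2 and 18.9 FPKM in control cells after LPS. The highest silenced library was below the lowest control library. Without LPS it had 11.99, 13.5 and 13.8 FPKM in silenced cells and 12.4, 13.5 and 10.5 FPKM in control cells, which overlapped. With LPS, Map2k2 rose by 24.6% in silenced cells (0.30 ± 0.11, limma adjusted p = 0.0381) and by 73.4% in control cells (0.75 ± 0.11, adjusted p = 0.000148), by group means. The rise in silenced cells was not called with a common sum per library (0.24), with no filter (adjusted p = 0.0592), or without silenced replicate 1 or 2 of the untreated cells or silenced replicate 2 or 3 of the treated ones (0.24 to 0.32).

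Silenced minus control after LPS came to -0.35 ± 0.11 for Map2k2 (95% interval -0.58 to -0.11, limma unadjusted p = 0.00754, adjusted p = 0.182), and the interaction was -0.45 ± 0.15 (-0.78 to -0.12, unadjusted p = 0.0123, adjusted p = 0.326). Neither passed adjustment. Over the other settings the difference after LPS lay between -0.42 and -0.28 and was -0.29 with estimated depth in the model, and adjusted p ranged from 0.111 to 0.439.

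The make-up of MEK transcripts is given as a description, with no test of the share and no background over other genes. Map2k2 made up 16.2% to 17.2% of Map2k1 plus Map2k2 FPKM in silenced cells after LPS, against 19.1% to 22.2% in control cells after LPS, with no overlap. Without LPS the share was 18.4% to 21.5% in silenced and 15.4% to 19.4% in control cells. In silenced cells the share was thus lower in all 3 libraries with LPS than in all 3 without. In control cells its mean was higher with LPS (21.0%) than without (17.2%), though the ranges overlapped. Summed MEK FPKM was 98.3 ± 6.66 in silenced and 100.2 ± 5.77 in control cells after LPS, and 67.2 ± 6.61 in silenced and 70.5 ± 2.78 in control cells without it (SD, n = 3).

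**Figure D2:**
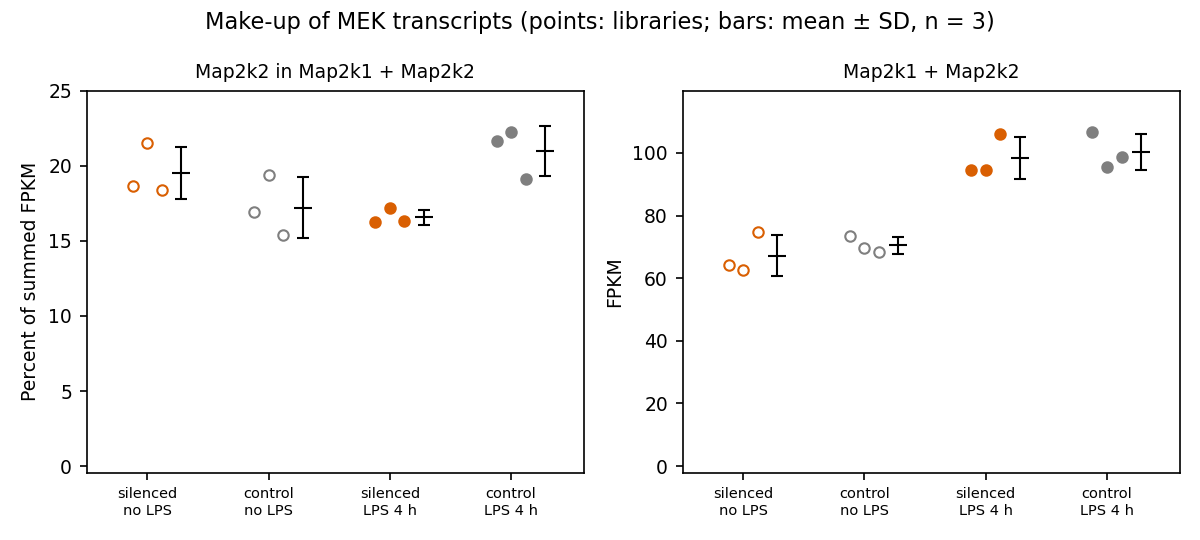
Share of Map2k2 in the summed FPKM of Map2k1 and Map2k2 (left, percent) and that sum (right, FPKM), by group, without LPS (open points) and after LPS (filled points). Points are libraries and bars the mean ± SD (n = 3). After LPS the Map2k2 share is 16.2% to 17.2% in silenced and 19.1% to 22.2% in control libraries, while the sums overlap.

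Mapk3 (ENSMUSG00000063065, chromosome 7, 126759601 to 126765819, plus strand, 8 annotated transcripts), which encodes ERK1, was the steadiest of the 7 genes other than Ksr1, with a highest library 1.34 times the lowest. After LPS it had 21.4, 23.5 and 25.5 FPKM in silenced cells, against 27.9, 26.5 and 27.3 FPKM in control cells. The silenced libraries all lay below the control libraries. Without LPS it had 24.5, 28.4 and 28.7 FPKM in silenced cells and 27.7, 22.2 and 27.0 FPKM in control cells, which overlapped. The difference after LPS was -0.21 ± 0.10 (95% interval -0.43 to 0.01, limma adjusted p = 0.418). LPS changes were -0.20 ± 0.10 in silenced cells and 0.09 ± 0.10 in control cells, neither called (adjusted p = 0.123 and 0.490). Both values depended on scaling: with median-ratio scaling they were 0.07 and 0.32, and the second was called (adjusted p = 0.0268).

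Ksr1 (ENSMUSG00000018334, chromosome 11, 79013440 to 79146407, minus strand), the scaffold that binds RAF, MEK and ERK, was barely detected. After LPS it was listed at 0.0335, 0.0695 and 0.0516 FPKM in silenced cells and at 0.0734, 0.0613 and 0.0929 FPKM in control cells. Without LPS it was listed at 0 in all 3 silenced libraries, and at 0, 0.0446 and 0.0781 FPKM in control libraries. It did not pass the filter of 1 FPKM in at least 3 libraries and was not tested. Fitted without a filter, it had 0 calls in the 6 comparisons, with the lowest adjusted p at 0.0849.

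For silencing as a whole, 0 of the 6 tested genes were called with limma without LPS, where 0.214% of all genes were called, and 0 after LPS, where 0.719% were. At an unadjusted p under 0.05, 0 of 6 passed without LPS (1565 of all 13078 genes) and 2 of 6 after LPS, Map3k8 and Map2k2 (1697 of all 13078). Ranges of silenced and control libraries were apart for 0 of 6 genes without LPS (18.2% of all genes) and for 3 of 6 after LPS (18.9% of all genes), Map3k8 higher (7.62% of all genes) and Map2k2 and Mapk3 lower (11.3%). Averaged over both times, 0 of 6 were called (1.04% of all genes), with 0 of 6 at an unadjusted p under 0.05 (1801 of all 13078). The median difference of the 6 genes was -0.07 without and 0.01 after LPS, against 0.01 and -0.03 over all genes. The interaction was called for 0 of 6 genes (0.0612% of all genes). Its unadjusted p was under 0.05 for 1 of 6, Map2k2 (1480 of all 13078 genes).

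**Figure D3:**
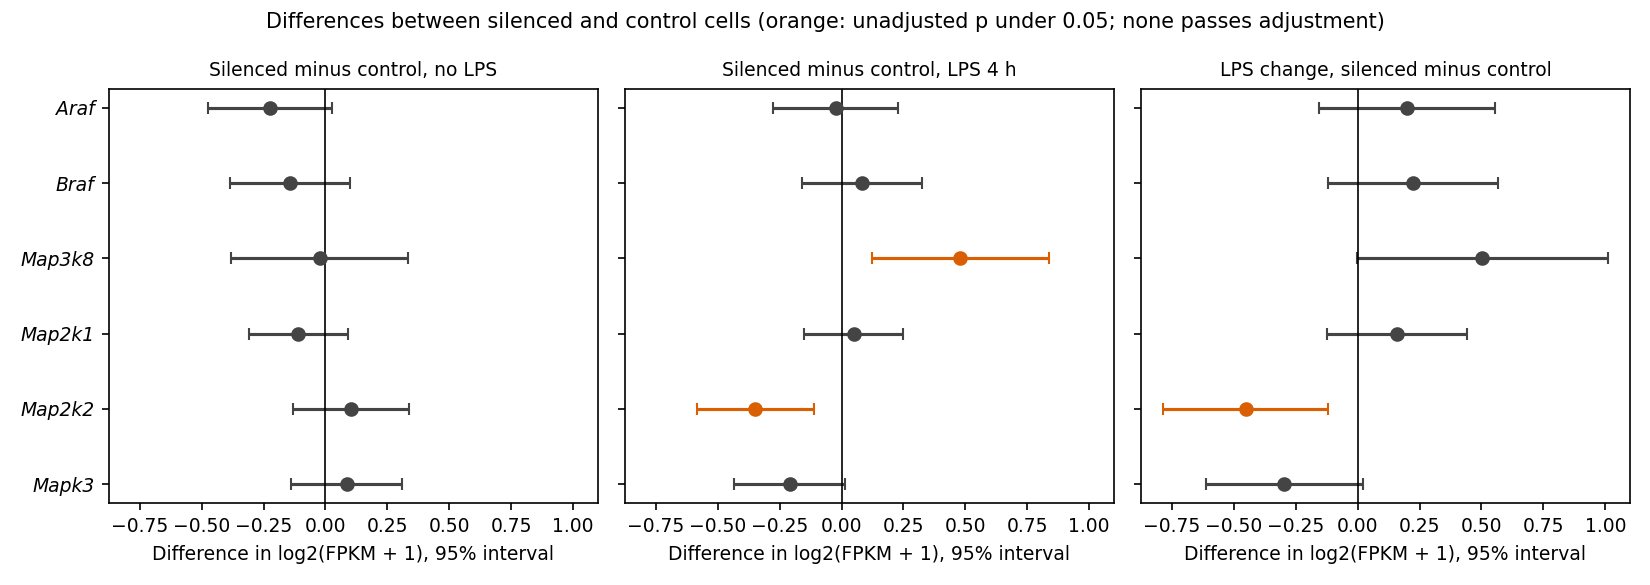
Differences in log2(FPKM + 1) with 95% intervals (x axis) for the 6 tested cascade genes (y axis): silenced minus control without LPS (left), silenced minus control after LPS (middle), and the LPS change in silenced minus that in control cells (right). Orange marks an unadjusted p under 0.05. After LPS Map3k8 is at 0.48 and Map2k2 at -0.35, and none of the 18 values passes adjustment.

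For LPS, 3 of 6 genes were called in silenced cells, all higher, where 48.5% of all genes were called, 13.0% higher and 35.5% lower. In control cells 4 of 6 were called, 3 higher and 1 lower, where 48.2% of all genes were called, 15.3% higher and 32.9% lower. The median LPS change was 0.11 over the 6 genes and -0.21 over all genes in silenced cells, and 0.26 over the 6 genes and -0.17 over all genes in control cells. With median-ratio scaling the median of all genes was 0.02 in silenced and in control cells. Of all LPS calls on the deposited scale 26.8% were higher in silenced and 31.7% in control cells, and with median-ratio scaling 51.3% and 53.0% were. Map2k1, Map2k2 and Map3k8 were positive with LPS under every scaling tried, and Araf and Braf in silenced cells were positive with median-ratio scaling (0.16 and 0.15) and quantile normalization (0.08 and 0.22). The control and silenced LPS comparisons use different libraries, while each silencing comparison shares its libraries with the LPS comparisons.

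**Figure D4:**
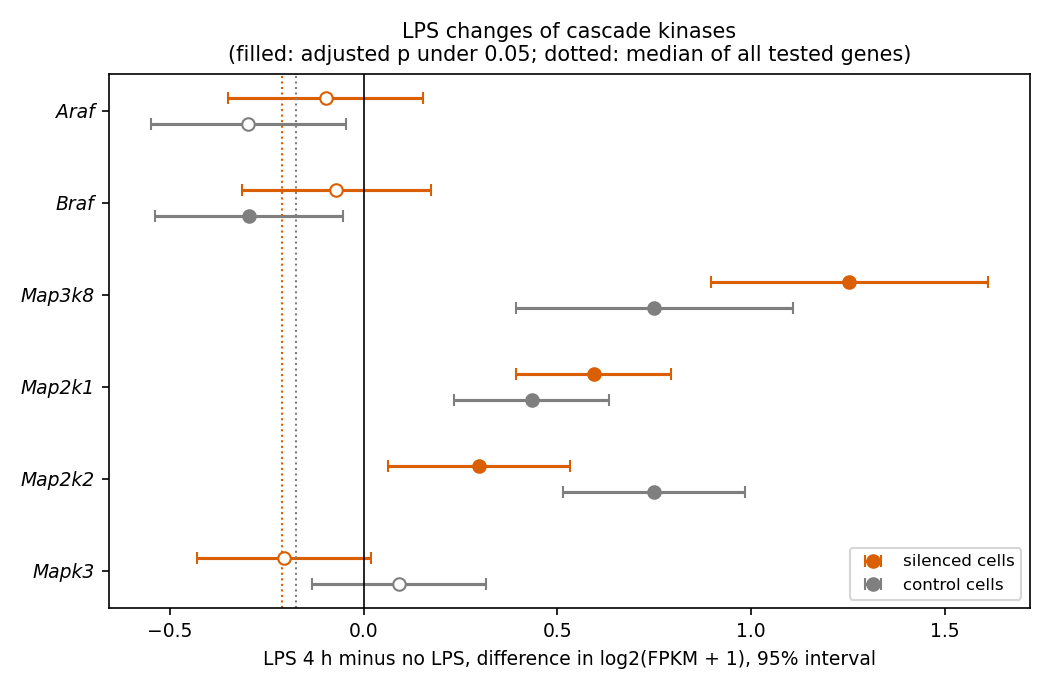
LPS change (4 h minus none) in log2(FPKM + 1) with 95% intervals (x axis) in silenced (orange) and control cells (grey) for the 6 tested cascade kinases (y axis). Filled points have an adjusted p under 0.05, and dotted lines mark the median of all tested genes, -0.21 in silenced and -0.17 in control cells. Map3k8, Map2k1 and Map2k2 lie above 0 in both.

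Genes around the cascade were taken from 11 further lists of 105 genes, of which 85 were tested. Silencing gave 0 calls among them without LPS, where 0.214% of all genes were called, and 2 of 85 after LPS, both lower, where 0.719% were called and 0.405% called lower. Mknk2, which encodes a kinase that ERK activates and that phosphorylates the translation factor eIF4E, fell after LPS, with 12.6, 12.6 and 13.2 FPKM in silenced cells and 18.4, 17.1 and 19.0 FPKM in control cells (-0.47 ± 0.07, limma adjusted p = 0.0214). It was also lower without LPS, at 39.6, 39.5 and 37.2 FPKM in silenced and 49.0, 44.3 and 47.7 FPKM in control cells (-0.27 ± 0.07, adjusted p = 0.180). Averaged over both times it fell by 0.37 ± 0.05 on the log2 scale (adjusted p = 0.00658), and this was called in all 22 other settings. The call after LPS was lost in 6 of 23 other settings, with estimated depth in the model, with quantile normalization, with only the libraries compared, and without control replicate 1 or silenced replicate 1 or 2 of the treated cells.

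Mapk6, the gene of the atypical kinase ERK3, fell after LPS (20.2, 21.6 and 24.2 FPKM in silenced and 32.0, 29.9 and 31.7 FPKM in control cells, -0.49 ± 0.09, limma adjusted p = 0.0438), but was called in 7 of 23 other settings. Its fall averaged over both times (-0.33 ± 0.07, adjusted p = 0.0424) was called in 7 of 22. Averaged over both times, Mapkapk2, which encodes the p38-activated kinase MK2, rose by 0.25 ± 0.05 (adjusted p = 0.0227). Its call was kept in 14 of 22 other settings. Without LPS it had 148 ± 9.12 FPKM in silenced and 120.1 ± 4.24 FPKM in control cells, and after LPS 407 ± 5.32 FPKM in silenced and 352 ± 10.7 FPKM in control cells.

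With LPS, genes of the Ras GTPase-activating proteins, which switch Ras off, were mostly called lower. Of the 6 tested, 5 fell in silenced cells, where 35.5% of all genes were called lower, and 6 in control cells, where 32.9% were, with median changes of -0.82 in silenced and -1.01 in control cells. In control cells all 6 kept a negative change in every setting, though the call for Nf1 was lost with median-ratio scaling and with quantile normalization and that for Rasal3 with quantile normalization. Among them Rasa3 had 3.32 ± 1.20 FPKM with and 30.0 ± 3.65 FPKM without LPS in silenced cells, and 4.98 ± 1.19 FPKM with and 28.9 ± 6.31 FPKM without LPS in control cells. Of 12 tested Ras GTPase, exchange factor and adaptor genes, 1 rose and 4 fell in silenced cells, and 1 rose and 5 fell in control cells, counts near the shares of all genes (13.0% higher and 35.5% lower in silenced, 15.3% higher and 32.9% lower in control cells). The exchange factor gene Rasgrp3 had 40.9 ± 9.61 FPKM with and 157 ± 8.29 FPKM without LPS in silenced cells, and 40.6 ± 6.93 FPKM with and 141 ± 14.6 FPKM without LPS in control cells.

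The counts that follow stand against 13.0% of all genes called higher and 35.5% lower in silenced cells, and 15.3% higher and 32.9% lower in control cells. Of 5 partners and activating kinases of TPL2, 1 rose and 1 fell in each kind of cell. Nfkb1, which encodes p105, rose by 2.37 ± 0.07 in silenced and 2.35 ± 0.07 in control cells (limma adjusted p = 5.09e-10 and 8.05e-10). Tnip2, which encodes the TPL2 partner ABIN2, fell in silenced cells (-0.51 ± 0.18, adjusted p = 0.0325) and was at -0.34 ± 0.18 in control cells (adjusted p = 0.135). Chuk, the IKK alpha gene, was at -0.21 ± 0.08 in silenced cells (adjusted p = 0.0545) and fell in control cells (-0.29 ± 0.08, adjusted p = 0.0124). The call for Tnip2 was kept in 13 of 23 other settings and that for Chuk in 22 of 23. Of the 19 tested scaffolds and binding partners, 3 rose and 4 fell in silenced and 6 rose and 3 fell in control cells. The kinase chaperone gene Cdc37 was one that rose in both (0.49 ± 0.10 and 0.70 ± 0.10). Of 7 kinases downstream of ERK 1 rose and 4 fell in both kinds of cell, Rps6ka2 being the one that rose (1.76 ± 0.17 in silenced and 1.75 ± 0.17 in control cells). Of 14 other MAP kinase kinase kinase genes 0 rose, and 9 fell in silenced and 11 in control cells. Map3k1 fell most by p, at -1.97 in silenced and -1.98 in control cells. Counts for the remaining kinase lists were 1 risen and 1 fallen of 5 p38 genes in silenced and 1 and 2 in control cells, 1 and 1 of 4 JNK genes in silenced and 1 and 2 in control cells, and 0 and 1 of 3 ERK5 and atypical ERK genes in silenced and 0 and 2 in control cells. Genes listed as ERK-dependent feedback genes were split, with 4 risen and 4 fallen of 8 in both. Their dependence on ERK was not tested here. Phlda1 was 32.7 ± 2.76 FPKM in silenced and 21.0 ± 1.10 FPKM in control cells after LPS (0.61 ± 0.15, adjusted p = 0.102).

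Profiles most like those of the cascade genes were sought by the root mean square difference in log2(FPKM + 1) over the 12 libraries, each gene centred on its own mean, among about 6630 genes of at least 5 FPKM on average. Nearest to Map3k8 was Psme2b, a proteasome activator gene copy (difference 0.17, against Map3k8's own spread of 0.56), with 64.5 ± 4.13 FPKM in silenced and 50.1 ± 2.66 FPKM in control cells after LPS. Map2k1 was closest to Psmd8, a proteasome subunit gene (0.07, own spread 0.27). Map2k2 was closest to Hmga1b, Gnl1 and Hmga1 (0.09, 0.09 and 0.10, own spread 0.31). Hmga1 and Hmga1b are near-identical copies whose reads may be shared. Gnl1, a GTPase gene, had 20.1 ± 0.40 FPKM in silenced and 26.0 ± 2.54 FPKM in control cells after LPS, and 17.5 ± 1.53 FPKM in silenced and 15.4 ± 0.28 FPKM in control cells without it, the same order of groups as Map2k2. Mapk3 was closest to the ribonuclease inhibitor gene Rnh1 (0.07, own spread 0.13), and Araf to Mapk8ip3, a JNK scaffold gene (0.05, own spread 0.17). The likeness is a description of 12 libraries that fall into groups with and without LPS.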

How the data were processed

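Values are gene FPKM as deposited by the authors, 1 column per library, for 53801 Ensembl gene records. HISAT2, StringTie and the GRCm38 build are listed in the submitters' processing notes. Their versions, the annotation release and the handling of multi-mapped reads are not given there. Of the records, 53706 were found by ID in GENCODE M21 (GRCm38), used for coordinates. Depth was estimated from the smallest step of FPKM times length in single-transcript genes, 7.41 to 17.7 M fragments; only 10% to 16% of low values lay within 1% of whole steps, so it is rough and FPKM was not treated as counts.

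Genes at 1 FPKM or more in at least 3 of 12 libraries, 13078, were tested with limma 3.58.1 in R 4.3.3 on log2(FPKM + 1), with 1 mean per group, an intensity trend and 8 residual degrees of freedom. Tests were 2-sided, adjusted by Benjamini-Hochberg over all tested genes, with adjusted p under 0.05 called. The fit was tested on simulated data. A symbol with 2 records was represented by the more abundant. Promoter windows are RefSeq's and 5 of the 7 symbols matched, all but Mapk3 and Map3k8. Members, lists and tests were chosen with earlier results of these data known. Genes named are the 7 members, Trappc4, and by rule the called list genes with the smallest p and the 3 nearest profiles per member, of each of which a selection is printed. Alternatives were other pseudocounts, filters and scalings, the replicate block, only the libraries compared, no trend, leaving out each library, and estimated depth as a covariate, the last chosen after seeing the data. Some results are not reported here.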

Additional observations from a re-analysis of the deposited data

How the results depend on the processing

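Under settings other than leaving out a library, 0 cascade genes were called for silencing at either time (11 settings), over both times or for the interaction (10 settings each, as the fit of only the compared libraries has no such value), and leaving out each of the 12 libraries in turn also gave 0 in all 4. The number called with LPS in control cells was 4, became 2 with quantile normalization (Map2k2 and Map3k8) and 5 with a common sum (Araf added), and was 3 to 4 without single libraries. In silenced cells it was 3, became 2 with no filter and with a common sum (without Map2k2), and was 2 to 3 without single libraries. Directions that turned were those of uncalled values. The LPS change in silenced cells became, with median-ratio scaling, 0.165 for Araf, 0.152 for Braf and 0.0672 for Mapk3. Quantile normalization gave 0.0839 for Araf and 0.223 for Braf. The silenced-minus-control difference of Araf after LPS became 0.0152 (median-ratio), 0.0260 (quantile) and 0.0300 (estimated depth). That of Map3k8 without LPS became 0.0730 with estimated depth, a setting chosen after seeing the data. The cause was not tested.

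Without single libraries, the difference after LPS ranged from -0.0801 to 0.0810 for Araf and from -0.00702 to 0.0888 for Map2k1. The difference without LPS ranged from -0.211 to 0.110 for Map3k8 and from -0.0106 to 0.157 for Mapk3. Averaged over both times it ranged from -0.0596 to 0.0200 for Braf and from -0.0742 to 0.00249 for Map2k1. The LPS change of Mapk3 in control cells ranged from -0.00528 to 0.149.

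Over all genes and settings, silencing gave 3 to 48 calls without LPS (28 as reported), 0 to 1.24 times the reported 94 after LPS, 63 to 175 over both times (136) and the interaction 0 to 20 (8). The LPS comparisons gave 4659 to 6707 calls in silenced and 4631 to 6558 in control cells. The silencing calls, and the background shares taken from them, rest on single libraries: leaving out 1 gave 3 to 40 without LPS (3 without control replicate 1 of the untreated cells) and 10 to 96 after LPS (10 without silenced replicate 2 of the treated cells). After LPS there were 18 with estimated depth in the model and 0 with only the compared libraries in the fit, where fewer libraries enter. Whether replicate numbers pair the samples was not settled. The 18 same-numbered pairs had correlations of -0.03 to 0.19 (median 0.05, 3 over 0.1). Of 12 libraries, 8 correlated best with their own number, a hint of pairing from the data and not the design. With a replicate block, silencing without LPS had 48 calls, 0 of them cascade genes, and Braf with LPS in control cells had an adjusted p of 0.0590. Rough depth and 3 libraries a group limit what small differences can show.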
